A study of Homo sapiens with 8 samples.

Results

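The genes described are 10 regulators of the G1 phase of the cell cycle, chosen by symbol from a fixed list: the D cyclins CCND1, CCND2 and CCND3, cyclin E1 (CCNE1), the kinases CDK4 and CDK6, the inhibitors CDKN1A, CDKN1B and CDKN2A, and the retinoblastoma gene RB1. Each matched 1 row, so all 10 were found among the 58870 gene rows of the deposited table. They were measured by RNA sequencing in Panc 10.05, an established line of human pancreatic ductal adenocarcinoma, in 4 control libraries and 4 libraries of the same line labelled as carrying an ELAPOR1 transgene (ELAPOR1 overexpression). ELAPOR1 encodes an endosome and lysosome associated membrane protein, and the series title links it to the classical/progenitor subtype of this cancer and to metabolism. The labels used here do not give the vector or promoter of the transgene, what the control cells carried, whether the line was a clone or a pool, or whether replicates were separate cultures. P-values therefore measure only the spread between these libraries, which may be technical.

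Cells commit to division late in G1. Growth signals raise the D cyclins, which bind and activate CDK4 or CDK6. These kinases, and then CDK2 with an E cyclin, phosphorylate the retinoblastoma protein and so release E2F transcription factors, which switch on genes of DNA replication. Inhibitors oppose the step: the INK4 proteins, such as p16 from CDKN2A, block CDK4 and CDK6, while the CIP/KIP proteins p21 (CDKN1A) and p27 (CDKN1B) block CDK2 complexes and also help D cyclins to assemble with their kinases. Many of these proteins are controlled by degradation and phosphorylation, which RNA counts do not show. In bulk libraries, fewer cells of a kind (or of a cell cycle stage) and less RNA per cell cannot be told apart.

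The ELAPOR1 row, listed under its older symbol KIAA1324, held 1, 1, 4 and 4 counts in control replicates 1 to 4 and 5910 to 7368 counts in ELAPOR1 libraries, so each library matched its label. Library totals were 16558600 to 18128757 counts in control and 13765509 to 17258166 in ELAPOR1 libraries. All 8 ductal epithelial markers examined, such as KRT8, KRT18 and EPCAM, were present, with a summed level of 12530 to 13860 CPM (counts per 1e6 counts of the library, scaled by TMM) in control and 11680 to 12000 CPM in ELAPOR1 libraries. KRT8 and KRT18 were the most abundant of them and fell by 0.16 and 0.36 on the log2 scale. CLDN4, with the largest change of the 8, and MUC1 had log2 fold changes of -0.40 and -0.22. KRT7, KRT19 and CDH1 rose by 0.315, 0.25 and 0.11. At an edgeR adjusted p-value under 0.05, 3 of the 8 were higher and 4 lower, against 22.6% and 22.1% of all tested genes. Of 14 markers of other cell types, 8 had no count in any library and 12 had at most 10 counts. The exceptions were CD68, a lysosomal membrane protein not limited to macrophages, at 72.6 to 87.8 CPM, and VWF at 0.576 to 1.95 CPM. The summed level of those 14 markers was 83.4 to 90.05 CPM in control and 73.5 to 79.5 CPM in ELAPOR1 libraries, nearly all of it CD68. Whether these marker levels bear on any result was not tested.

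Upstream sequences of 4 genes are shown because their results differ in kind: CDKN1A rose, CDKN1B fell, CDK4 was not called, and CDKN2A has separate start sites whose transcripts the gene counts merge. Each is the 250 bases before a RefSeq start site on GRCh38.p14, written 5′ to 3′ on the strand of the gene. Capitals mark matches, on either strand, to the GC box (GGGCGG), the CCAAT box (CCAAT) or the E-box (CACGTG).
CDKN1A, plus strand, chr6:36678464-36678713: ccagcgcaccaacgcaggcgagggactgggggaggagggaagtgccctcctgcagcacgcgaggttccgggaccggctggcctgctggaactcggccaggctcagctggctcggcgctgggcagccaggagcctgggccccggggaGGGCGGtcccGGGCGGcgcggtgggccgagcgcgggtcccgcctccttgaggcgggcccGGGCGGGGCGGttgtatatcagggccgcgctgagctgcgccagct
CDKN1B, plus strand, chr12:12717118-12717367: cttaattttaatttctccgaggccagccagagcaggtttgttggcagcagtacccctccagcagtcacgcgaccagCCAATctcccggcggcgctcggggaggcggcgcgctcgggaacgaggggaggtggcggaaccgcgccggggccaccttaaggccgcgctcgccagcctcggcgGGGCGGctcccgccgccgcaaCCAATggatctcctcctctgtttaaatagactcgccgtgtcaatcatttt
CDK4, minus strand, chr12:57752311-57752560: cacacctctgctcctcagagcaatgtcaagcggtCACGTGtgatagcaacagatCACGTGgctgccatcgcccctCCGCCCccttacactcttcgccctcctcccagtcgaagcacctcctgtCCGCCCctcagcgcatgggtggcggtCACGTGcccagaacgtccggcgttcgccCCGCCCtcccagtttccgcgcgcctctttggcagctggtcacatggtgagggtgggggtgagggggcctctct
CDKN2A upstream start, minus strand, chr9:21995325-21995574: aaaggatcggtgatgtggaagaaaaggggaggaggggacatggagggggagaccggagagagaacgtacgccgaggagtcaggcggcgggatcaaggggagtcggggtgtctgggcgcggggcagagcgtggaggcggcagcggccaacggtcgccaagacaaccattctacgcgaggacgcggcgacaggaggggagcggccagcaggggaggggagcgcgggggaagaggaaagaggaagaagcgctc
CDKN2A downstream start, minus strand, chr9:21974858-21975107: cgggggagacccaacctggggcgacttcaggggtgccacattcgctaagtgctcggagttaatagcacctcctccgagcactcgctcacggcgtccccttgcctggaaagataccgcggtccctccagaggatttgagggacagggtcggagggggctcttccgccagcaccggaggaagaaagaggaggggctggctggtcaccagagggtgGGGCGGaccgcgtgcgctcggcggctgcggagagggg

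The window of CDKN1A held 4 GC boxes, of which 2 share a base. CDKN1B had 1 GC box and 2 CCAAT boxes. CDK4 had 3 GC boxes and 3 E-boxes, the motif bound by MYC with MAX. The downstream CDKN2A window had 1 GC box and the upstream one none of the motifs searched. Over 35116 RefSeq windows of the same length, 42.6% held a GC box, 32.0% a CCAAT box and 6.34% an E-box. The TATA box (TATAAA, in 10.7% of windows), the cyclic AMP response element (TGACGTCA, in 1.65%) and 3 forms of the E2F site (TTTCGCGC, TTTGGCGC and TTTCCCGC, together in 2.32%) had no match in the windows of the 8 genes found in that table (CCND3, CCNE1, CDK4, CDK6, CDKN1A, CDKN1B, CDKN2A and RB1). The RB1 window lies before a start inside the gene, at chr13:48476200-48476449, and so does not describe the sequence before its first exon. The windows of CDKN1A, CDKN1B and CDK4 and the downstream window of CDKN2A also lie inside the annotated spans given below. For these genes the annotated span begins further upstream than the start site used. A match is a run of letters and says nothing of whether a factor was bound. MYC, named after its value was seen, was at 172 CPM in control and 169 CPM in ELAPOR1 libraries (log2 difference -0.03, adjusted p = 0.58 by edgeR, SE 0.0349). A link between MYC and CDK4 was not tested.

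All 10 genes passed the filter on low counts, with 48.2 to 11903 counts per library. Of these, 8 were called at an edgeR adjusted p-value under 0.05, against 44.7% of all 13860 genes tested and 51.4% of the 10703 with a mean of at least 5 CPM. CCND1, CCND3, CDK6, CDKN1A and RB1 were higher in ELAPOR1 libraries, where 22.6% of tested genes were called higher. CCND2, CDKN1B and CDKN2A were lower, where 22.1% were called lower. CCNE1 and CDK4 did not pass. At an adjusted p-value under 0.01, 7 of the 10 were called, against 33.8% of tested genes. For 7 genes the CPM ranges of control and ELAPOR1 were apart (5 higher, 2 lower), against 39.2% of tested genes in either direction, 20.0% higher and 19.3% lower. Changes were mostly small: 6 of the 8 called genes changed by less than 1.5-fold, and CDKN1A and CCND2 passed a test against a 1.5-fold change (glmTreat), which 1.55% of tested genes passed. The median log2 fold change of the 10 genes was 0.15, with values on both sides of 0, against 0.0009 over all tested genes.

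**Figure D1:**
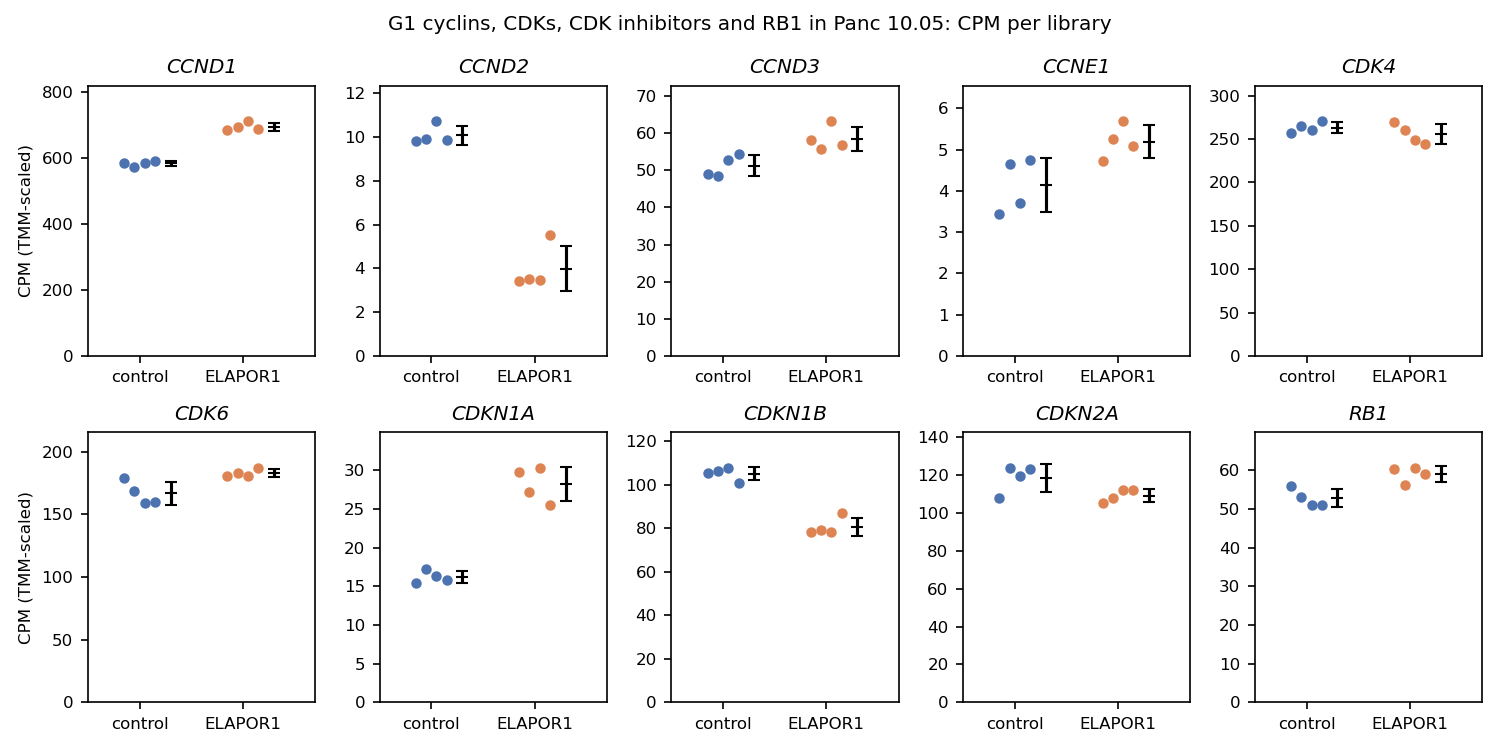
CPM (scaled by TMM, linear axes from 0) of the 10 genes in each library, with control in blue and ELAPOR1 in orange. Black marks give the mean and SD of 4 libraries. CDKN1A at 25.6 to 30.3 CPM lies above its control libraries at 15.4 to 17.2, and CCND2 at 3.44 to 5.54 CPM lies below its control libraries at 9.81 to 10.7.

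On the scale of CPM per kb of transcript, which allows genes to be compared, CCND1 and CDK4 were the most abundant of the 10 in control libraries. CCND1 stood at 135 ± 1.77 and CDK4 at 127 ± 2.97 CPM per kb (mean ± SD of 4 libraries). CDKN2A followed at 92.3 ± 5.82, CDKN1B at 39.6 ± 1.09, CCND3 at 24.6 ± 1.35 and CDK6 at 14.4 ± 0.777 CPM per kb. RB1 was at 11.02 ± 0.491, CDKN1A at 7.15 ± 0.333, CCNE1 at 2.03 ± 0.325 and CCND2 at 1.56 ± 0.0667 CPM per kb. No 2 neighbours in that order overlapped among control libraries. In ELAPOR1 libraries the mean of CDKN1A was above that of RB1, at 12.4 ± 0.976 against 12.3 ± 0.432 CPM per kb, and their ranges overlapped, as did those of CDKN1B (30.3 ± 1.60) and CCND3 (28.03 ± 1.58). These levels and their order rest on 1 annotated transcript per gene and move with that choice. The transcript used for CDKN2A has 1283 bases, against 4329 over all its annotated exons. For CCND3 these lengths are 2085 and 5802. With all annotated exons, CDKN2A and CCND3 would stand lower in the order.

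CCND1 encodes cyclin D1, the main D cyclin of many epithelial cancers. Its levels were 585, 573, 584 and 591 CPM in control replicates 1 to 4 and 686, 694, 711 and 687 CPM in ELAPOR1 replicates 1 to 4. Every ELAPOR1 library was above every control library, and the spread within a group was small. The rise was 1.19-fold, a log2 fold change of 0.25 (adjusted p = 1.6e-09 by edgeR, SE 0.0268). CCND1 lies on chromosome 11 from 69641087 to 69654474 (GRCh38, plus strand). LTO1, which overlaps it on the opposite strand, had a log2 fold change of 0.0004 (adjusted p = 0.996 by edgeR, SE 0.0608).

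CCND3, cyclin D3, moved the same way at a lower level. It was at 49.1, 48.6, 52.7 and 54.4 CPM in the control libraries and 58.1, 55.8, 63.2 and 56.7 CPM in the ELAPOR1 libraries. The lowest ELAPOR1 library was just above the highest control library, and the rise was 0.19 on the log2 scale (adjusted p = 2.6e-03 by edgeR, SE 0.0511). CCND3 lies on chromosome 6 from 41934933 to 42050357 (GRCh38, minus strand).

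CCND2, cyclin D2, went the other way and had the largest change of the 10 in the deposited rows. It was at 9.81, 9.91, 10.7 and 9.88 CPM in the control libraries and 3.44, 3.53, 3.46 and 5.54 CPM in the ELAPOR1 libraries. The groups did not overlap, and ELAPOR1 replicate 4 stood above the other 3. The log2 fold change was -1.32 (adjusted p = 8.7e-10 by edgeR, SE 0.137), which means 0.400 of the control level. This size depends on how reads were divided. CCND2 is on chromosome 12 from 4273772 to 4305350 (GRCh38, plus strand) and shares exons with AC008012.1, an annotated read-through gene on the same strand that also shares exons with TIGAR. CCND2 is the only one of the 10 with counts that were not whole, in 8 of 8 libraries.

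AC008012.1, named after its values were seen, held 224, 247, 165 and 135 counts in the control and 114, 158, 135 and 157 counts in the ELAPOR1 libraries (log2 difference -0.32, adjusted p = 0.152 by edgeR, SE 0.171). With both rows summed, the level was 22.2, 24.5, 20.6 and 18.1 CPM in control and 10.4, 14.1, 13.2 and 14.6 CPM in ELAPOR1 libraries. The groups still did not overlap, and the log2 fold change of the sum was -0.71 (adjusted p = 1.3e-06 by edgeR, SE 0.0990), or 0.613 of the control level. In size this is below the 0.80 of CDKN1A. The sum may also hold reads from exons that AC008012.1 shares with TIGAR. TIGAR was higher (log2 difference 0.38, adjusted p = 1.8e-03 by edgeR, SE 0.0927), and its part in the sum was not tested.

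Added up per kb of transcript, the 3 D cyclins stood at 161, 158, 163 and 165 CPM per kb in control and 188, 188, 196 and 188 CPM per kb in ELAPOR1 libraries. CCND1 made up 83.9 ± 0.583% of that sum in control and 84.9 ± 0.512% in ELAPOR1 libraries, and CCND3 15.2 ± 0.579% and 14.8 ± 0.539% (mean ± SD of 4 libraries). Both shares overlapped between groups. CCND2 made up 0.963 ± 0.0413% in control and 0.325 ± 0.0876% in ELAPOR1 libraries (mean ± SD of 4 libraries), so its fall hardly touched the sum. These sums are descriptions and carry no test.

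**Figure D2:**
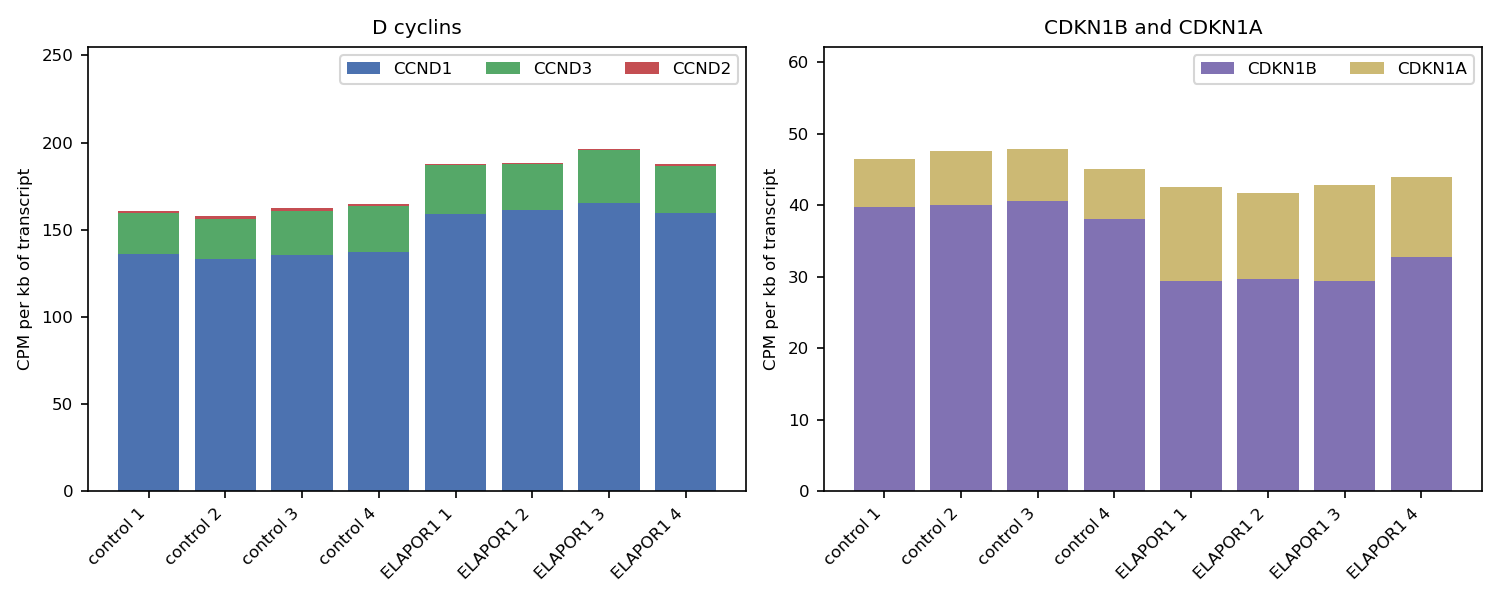
Stacked levels in CPM per kb of transcript in each of the 8 libraries, for the D cyclins on the left and for CDKN1B and CDKN1A on the right. The D cyclin sum is 158 to 165 in control and 188 to 196 in ELAPOR1 libraries, nearly all CCND1 and CCND3. On the right the CDKN1A part grows from 14.6 to 15.9% of the bar to 25.6 to 31.3%.

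CCNE1, cyclin E1, the partner of CDK2, was low. It held 62, 79, 62 and 78 counts in the control and 77, 79, 79 and 88 counts in the ELAPOR1 libraries. In CPM these were 3.44 to 4.76 and 4.73 to 5.69, ranges that overlapped. The log2 fold change of 0.32 (SE 0.152, 95% interval 0.025 to 0.62) did not pass (adjusted p = 0.083 by edgeR, unadjusted p = 0.041). Counts this few leave a change of the size seen for CCND1 undecided. CCNE1 lies on chromosome 19 from 29811898 to 29824308 (GRCh38, plus strand). Its paralog CCNE2 was more abundant, taking 84.5 ± 3.21% of the summed E cyclin level per kb in control and 83.1 ± 1.54% in ELAPOR1 libraries (mean ± SD of 4 libraries). CCNE2 rose from 37.1 ± 3.50 to 41.8 ± 1.73 CPM (mean ± SD of 4 libraries), a log2 fold change of 0.17 (adjusted p = 0.022 by edgeR, SE 0.0607), with overlapping groups.

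The kinases moved little. CDK4 was at 257, 266, 260 and 271 CPM in the control and 269, 261, 249 and 244 CPM in the ELAPOR1 libraries. These ranges overlapped, and the log2 fold change of -0.04 had a 95% interval of -0.10 to 0.02 (adjusted p = 0.344 by edgeR, SE 0.0326). CDK4 lies on chromosome 12 from 57747727 to 57756013 and CDK6 on chromosome 7 from 92604921 to 92836594, both on the minus strand (GRCh38). TSPAN31 and MARCH9 overlap CDK4 on the opposite strand and were lower, at -0.36 (adjusted p = 3.6e-05 by edgeR, SE 0.0662) and -0.38 (SE 0.0898, adjusted p = 7.4e-04) on the log2 scale, and whether counting used strand is not given in the sources used here.

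CDK6 was at 179, 168, 159 and 160 CPM in the control and 181, 183, 181 and 187 CPM in the ELAPOR1 libraries. Control replicate 1 came close to the ELAPOR1 range, but the groups did not overlap. Its log2 fold change was 0.13 (adjusted p = 2.4e-03 by edgeR, SE 0.0355), and 0.081 (adjusted p = 0.018) once GC and length trends had been taken out. Per kb, CDK4 exceeded CDK6 by 8.86 ± 0.609 times in control and 7.84 ± 0.435 times in ELAPOR1 libraries (mean ± SD of 4 libraries), with overlapping ranges. CDK2, the kinase of the E cyclins, fell from 168 ± 5.34 to 153 ± 5.64 CPM (mean ± SD of 4 libraries), a log2 fold change of -0.13 (adjusted p = 1.9e-03 by edgeR, SE 0.0349).

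The inhibitors split. CDKN1A, which encodes p21, was the largest rise of the 10. It was at 15.4, 17.2, 16.4 and 15.9 CPM in the control and 29.7, 27.2, 30.3 and 25.6 CPM in the ELAPOR1 libraries. The gap between the groups was wider than the spread within either. The rise was 1.74-fold, a log2 fold change of 0.80 (adjusted p = 5.9e-11 by edgeR, SE 0.0733). CDKN1A lies on chromosome 6 from 36676460 to 36687339 (GRCh38, plus strand), and DINOL, a noncoding gene that overlaps it on the opposite strand, had 2 counts in 1 library and none in the others.

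CDKN1B, which encodes p27, fell. It was at 105, 106, 108 and 101 CPM in the control and 78.2, 79.0, 78.1 and 86.9 CPM in the ELAPOR1 libraries. The groups did not overlap, and ELAPOR1 replicate 4 was again nearest to control. The log2 fold change was -0.38 (adjusted p = 2.4e-09 by edgeR, SE 0.0416), or 0.767 of the control level. CDKN1B lies on chromosome 12 from 12715058 to 12722371 (GRCh38, plus strand).

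Per kb, CDKN1B exceeded CDKN1A by 5.84, 5.28, 5.62 and 5.44 times in the control and by 2.25, 2.48, 2.20 and 2.90 times in the ELAPOR1 libraries. The groups were well apart, but CDKN1B was the more abundant of both transcripts in each library. Their sum was 46.7 ± 1.25 CPM per kb in control and 42.8 ± 0.926 in ELAPOR1 libraries (mean ± SD of 4 libraries), and the share of CDKN1A in it went from 15.3 ± 0.566% to 29.1 ± 2.56%. The ratio of CCND1 to CDKN1B, per kb, was 3.33 to 3.61 in control and 4.88 to 5.62 in ELAPOR1 libraries.

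CDKN2A encodes both the INK4 inhibitor p16 and, from the upstream start, ARF, which restrains MDM2 and so protects p53. It was well expressed in this line, at 108, 124, 119 and 123 CPM in the control and 105, 108, 112 and 112 CPM in the ELAPOR1 libraries. Control replicate 1 fell inside the ELAPOR1 range, so the groups overlapped. The log2 fold change of -0.12 (adjusted p = 0.020 by edgeR, SE 0.0414) was close to the threshold. The call was lost with total count scaling (adjusted p = 0.055), without control replicate 2 (adjusted p = 0.092), without ELAPOR1 replicate 1 (adjusted p = 0.084) and without ELAPOR1 replicate 2 (adjusted p = 0.056). After GC and length trends were removed the log2 fold change was -0.012 (adjusted p = 0.814). The gene lies on chromosome 9 from 21967753 to 21995301 (GRCh38, minus strand) and overlaps CDKN2B-AS1 on the opposite strand, which had a log2 fold change of -0.14 (adjusted p = 0.226 by edgeR, SE 0.0931). Gene counts do not separate p16 from ARF transcripts.

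Other inhibitors of the same families also went both ways. They, like CCNE2, CDK2 and RBL2, were named for their kinship after their values were seen. CDKN2C, which encodes the INK4 protein p18, rose from 42.4 ± 1.83 to 54.8 ± 2.24 CPM (mean ± SD of 4 libraries), a log2 fold change of 0.37 (adjusted p = 3.1e-07 by edgeR, SE 0.0510). CDKN2B, which encodes p15 and neighbours CDKN2A, fell by 0.24 on the log2 scale (adjusted p = 1.1e-03 by edgeR, SE 0.0579), from 39.5 ± 2.07 to 33.5 ± 1.54 CPM (mean ± SD of 4 libraries). CDKN1C, which encodes p57, fell by 0.79 (adjusted p = 3.7e-04 by edgeR, SE 0.176), from only 5.04 ± 0.940 to 2.91 ± 0.481 CPM (mean ± SD of 4 libraries). CDKN2D, at 13.6 CPM in control libraries, was not called, with a log2 fold change of 0.048 (adjusted p = 0.716 by edgeR).

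RB1, the substrate of these kinases, was at 56.1, 53.1, 51.1 and 51.03 CPM in the control and 60.4, 56.2, 60.7 and 59.1 CPM in the ELAPOR1 libraries. The lowest ELAPOR1 library lay just above the highest control library. Its log2 fold change was 0.16 (adjusted p = 6.5e-03 by edgeR, SE 0.0480). RB1 lies on chromosome 13 from 48303726 to 48599436 (GRCh38, plus strand), and RCBTB2, which overlaps it on the opposite strand, rose by 0.71 on the log2 scale (adjusted p = 8.3e-05 by edgeR, SE 0.140) at 65 to 148 counts per library. Of the other pocket proteins, RBL1 (p107) rose from 34.1 ± 2.33 to 46.4 ± 1.46 CPM (log2 difference 0.44, adjusted p = 7.0e-08 by edgeR, SE 0.0564) and RBL2 (p130) fell from 125 ± 8.27 to 110 ± 4.84 CPM (-0.19, SE 0.0427, adjusted p = 6.4e-04, mean ± SD of 4 libraries).

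**Figure D3:**
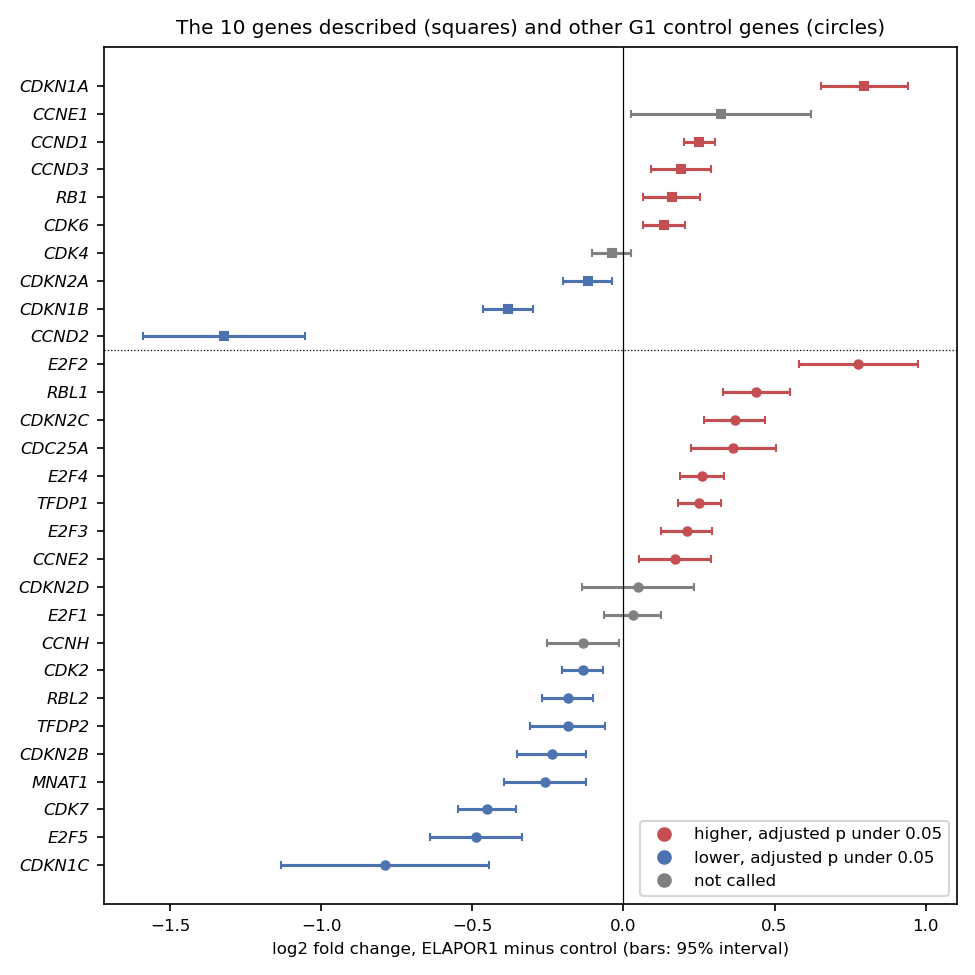
Log2 fold change of ELAPOR1 minus control for the 10 genes (squares, above the dotted line) and 19 other G1 control genes (circles). Bars are 95% intervals, and colour gives the edgeR call. Among the 10, CDKN1A at 0.80 and CCND2 at -1.32 stand at the ends, and CDK4 at -0.04 and CCNE1 at 0.32 are the uncalled genes.

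Of 19 other G1 control genes (cyclins, kinases, inhibitors, pocket proteins, E2F factors and their partners), all were tested, 8 rose and 8 fell, with a median log2 fold change of 0.031. That is 84.2% called, against 44.7% of all tested genes (22.6% higher, 22.1% lower). E2F2, an activating E2F, rose from 7.53 ± 0.785 to 12.9 ± 0.594 CPM (mean ± SD of 4 libraries), a log2 fold change of 0.78 (adjusted p = 8.9e-08 by edgeR, SE 0.101). E2F5, a repressive E2F, fell by 0.49 on the log2 scale (adjusted p = 4.0e-06 by edgeR, SE 0.0777), from 28.0 ± 1.91 to 20.02 ± 2.51 CPM (mean ± SD of 4 libraries). Of 16 genes for the turnover of G1 regulators, 4 rose and 3 fell, with a median of 0.016, and the 43.8% called is near the 44.7% over all tested genes. DTL, a substrate receptor of the ligase that degrades p21 in S phase, rose from 74.01 ± 2.74 to 110 ± 2.56 CPM (log2 difference 0.57, adjusted p = 8.0e-14 by edgeR, SE 0.0400, mean ± SD of 4 libraries). CUL1, the scaffold of the SCF ligases, rose by 0.26 (adjusted p = 9.6e-07 by edgeR, SE 0.0388). SKP2, the SCF subunit that recognises p27, named after its value was seen, fell by 0.17 (adjusted p = 2.6e-03 by edgeR, SE 0.0470).

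E2F target genes of S phase entry lie downstream of these regulators. All 21 were tested, 15 rose and 0 fell in the edgeR fit, where 22.6% of all tested genes were called higher and 22.1% lower, and the median log2 fold change was 0.17. The count of lower genes was 1 at an unadjusted p under 0.05, 0 by DESeq2 or limma-voom, 1 with all genes of at least 1 count kept, and 1 without control replicate 1. UHRF1, which maintains DNA methylation at replication, rose from 144 ± 5.33 to 221 ± 8.75 CPM (log2 difference 0.62, adjusted p = 4.3e-16 by edgeR, SE 0.0351, mean ± SD of 4 libraries). POLA1, the catalytic subunit of DNA polymerase alpha, rose from 48.2 ± 2.23 to 67.8 ± 0.627 CPM (0.49, adjusted p = 1.1e-10 by edgeR, SE 0.0466, mean ± SD of 4 libraries). Of 12 genes of the DREAM and MuvB complex, which represses cell cycle genes in resting cells, and its activating partners, 6 rose and 2 fell (against 22.6% called higher and 22.1% lower over all tested genes), with a median of 0.14. RBL1 and E2F5, given above, had its largest changes. Some genes stand in more than 1 of these lists.

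CDKN1A is a classic target of p53, and CCND1 follows ERK signalling, so known targets of p53 and of ERK were listed. Of 23 p53 targets other than CDKN1A, 3 rose and 10 fell (against 22.6% called higher and 22.1% lower over all tested genes), with a median log2 fold change of -0.15. TIGAR is among the 3 that rose, with overlapping groups and counts that were not whole. It shares exons with AC008012.1, so its call may depend on how reads were divided. BBC3, which encodes the cell death protein PUMA, fell by 0.76 (adjusted p = 2.6e-07 by edgeR, SE 0.105), from 11.9 ± 1.08 to 6.98 ± 0.428 CPM (mean ± SD of 4 libraries). PLK2, a stress-induced kinase, fell by 0.58 (adjusted p = 1.1e-16 by edgeR, SE 0.0314), from 374 ± 14.9 to 250.2 ± 5.09 CPM (mean ± SD of 4 libraries). MDM2, the ligase that degrades p53, named after its value was seen, fell by 0.26 (adjusted p = 2.2e-06 by edgeR, SE 0.0395). Of 16 ERK output genes, CCND1 among them, 3 rose and 8 fell (22.6% and 22.1% of all tested genes), with a median of -0.10. CCND1 is itself among the 3 that rose and enters that median. EGR1, an immediate early factor, rose from 55.1 ± 3.18 to 83.3 ± 4.22 CPM (log2 difference 0.60, adjusted p = 2.2e-12 by edgeR, SE 0.0477, mean ± SD of 4 libraries). DUSP6, a phosphatase of ERK, fell by 0.50 (adjusted p = 2.7e-08 by edgeR, SE 0.0608), from 37.4 ± 2.21 to 26.5 ± 0.697 CPM (mean ± SD of 4 libraries).

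**Figure D4:**
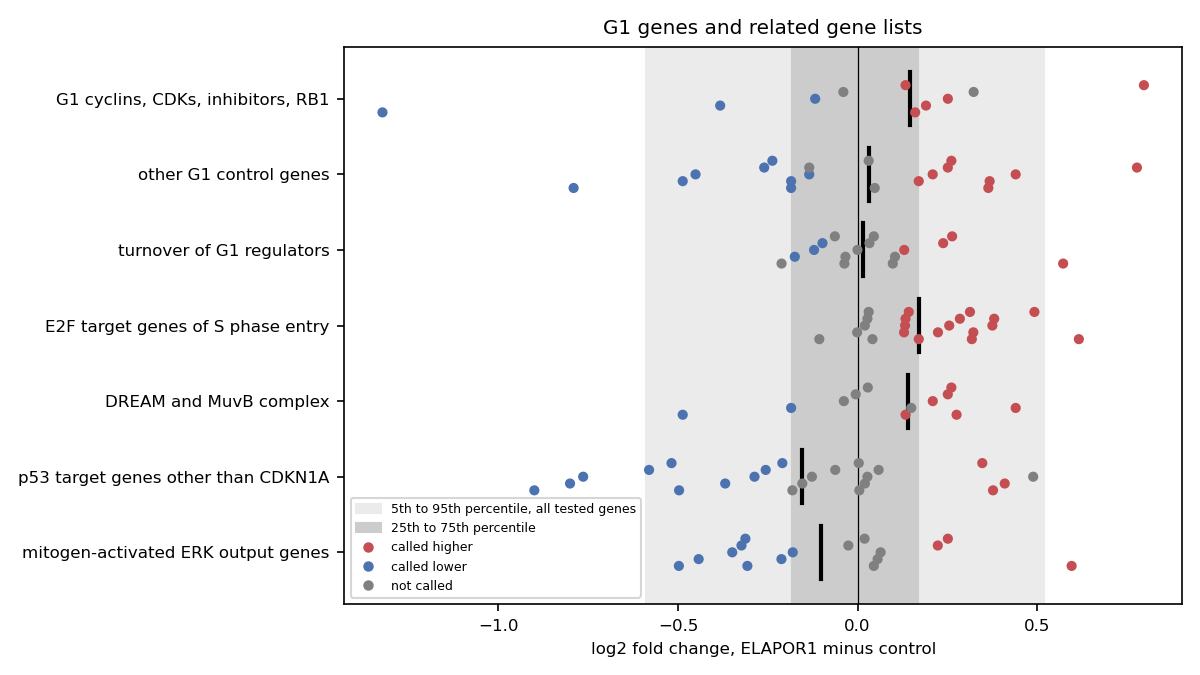
Log2 fold changes of the 10 genes and 6 related lists, 1 point per tested gene, coloured by the edgeR call, with black bars at list medians and grey bands for all 13860 tested genes. The E2F targets have 15 called genes above 0 and none below, while p53 targets have 3 above and 10 below.

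The genes whose profile over the 8 libraries was nearest to that of CDKN1A were ST3GAL2, ZSCAN12 and TBC1D2, at a root mean square difference of 0.059, 0.060 and 0.068 in log2(CPM + 1) relative to control, among 10703 genes. They rose by 0.86, 0.82 and 0.80 on the log2 scale. Nearest to CCND2 were PDZK1IP1, PKD1L2 and CCNG2, at 0.132, 0.135 and 0.135, with log2 fold changes of -1.20, -1.22 and -1.31. CCNG2 encodes cyclin G2, an unconventional cyclin of growth arrest, and fell from 40.03 ± 3.50 to 16.1 ± 1.94 CPM (mean ± SD of 4 libraries). The measure includes the difference between the groups. For CCND2 it used the CCND2 row alone, whose fall depends on how reads were divided with AC008012.1. Profiles were not compared for the sum of both rows, which had a log2 fold change of -0.71.

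Neighbours were counted where their annotated span came within 1 Mb of that of the gene. Around CDKN1A, 5 of 21 tested neighbours were higher and 5 lower, near the 44.7% called over all tested genes, with a median log2 fold change of 0.036. Around CCND2, 4 of 12 were called higher, TIGAR among them at 0.38, and 0 lower, with a median of 0.18. The 12 include AC008012.1, the read-through gene that shares exons with CCND2. Around CDKN1B, 1 of 17 was higher and 4 lower, with a median of -0.14. Around CCND1, 2 of 12 were higher and 4 lower, with a median of -0.091. Over all tested genes, 22.6% were called higher and 22.1% lower. CCND3 and CDK4 had the most tested neighbours of the 10 genes. Around CCND3, 6 of 34 were higher and 9 lower, with a median of -0.069. Around CDK4, 3 of 27 were higher and 12 lower, with a median of -0.15. These counts carry no test, and no regional pattern is read from them.

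**Figure D5:**
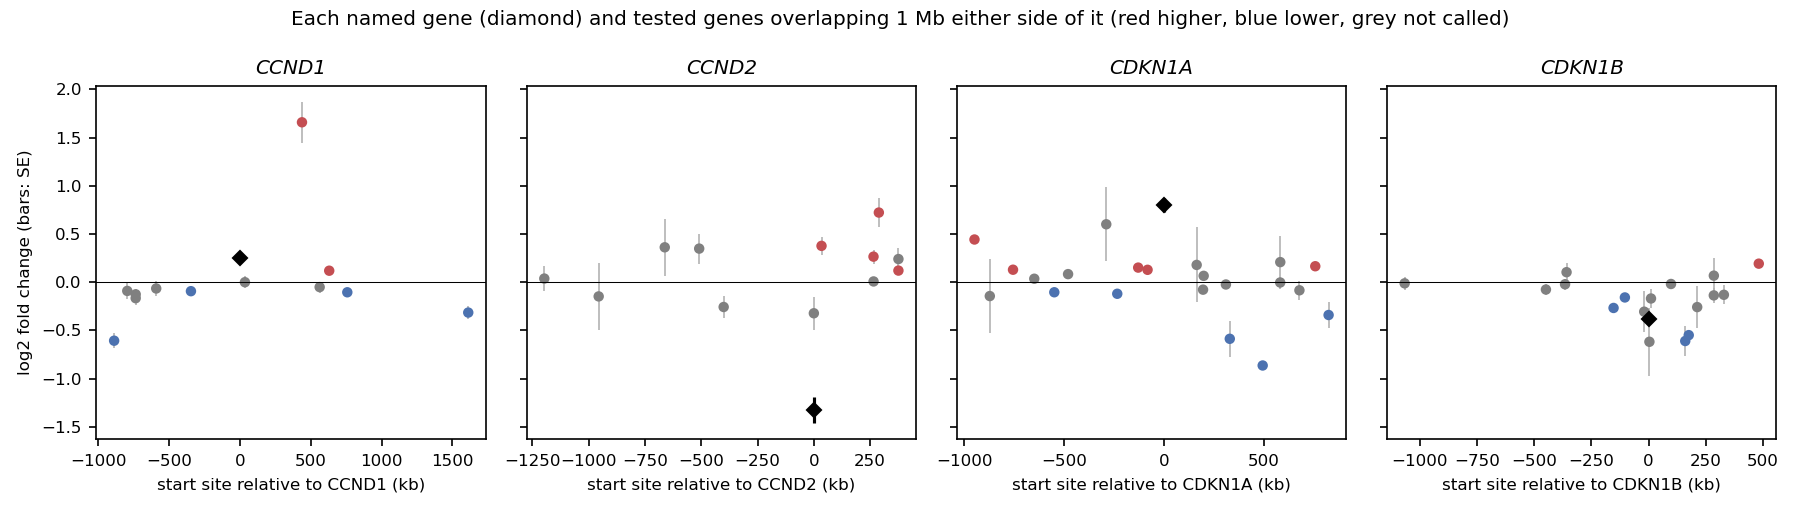
Log2 fold change (bars, SE) of CCND1, CCND2, CDKN1A and CDKN1B (black diamonds) and of tested genes whose span comes within 1 Mb, against the distance between start sites in kb, which can exceed 1 Mb for a long gene. CCND2 at -1.32 lies below its 12 neighbours, which range from -0.32 (AC008012.1, which shares exons with CCND2) to 0.72. CDKN1A at 0.80 lies above its 21, which range from -0.86 to 0.60.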

How the data were processed

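RNA was sequenced on an Illumina NextSeq, per the labels. The authors deposited 1 table of expected counts per gene, not scaled between libraries; the submitters' processing notes name cutadapt, STAR, RSEM, DESeq2 and hg38. Versions, annotation release and use of strand are not given in the sources used here. Of nonzero values 15.0% were not whole.

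Counts were rounded, filtered with filterByExpr, scaled with TMM and tested with the robust quasi-likelihood test of edgeR 4.0.16 (R 4.3.3), two-sided, with no covariate, over 13860 genes, with Benjamini-Hochberg adjustment. SE is the log2 fold change divided by the square root of F. Total counts per library were 13765509 to 18128757. The common biological coefficient of variation was 0.0401, and within-group library pairs differed by more than sampling noise. The procedure was tested on simulated data.

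Alternatives used limma 3.58.1, DESeq2 1.42.0, other scalings, filters and thresholds, and libraries left out. The summed CCND2 row and the exon-union lengths were added after seeing the data. Coordinates and transcript lengths (longest principal transcript) are from GENCODE 29 on GRCh38, where 6 of the 10 genes have the version of the deposited table. Promoters are from RefSeq. The genes and lists were chosen with earlier results of these data known. From each other list, the 2 called genes with the largest change and a mean of at least 5 CPM were named. Profiles were compared for the called gene with the largest rise and fall. Figures were drawn with matplotlib 3.10.9.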

Additional observations from a re-analysis of the deposited data

Results flagged for a closer look

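In 6 of 56 groups of 4 libraries examined (library totals, CPM of the 10 genes, sums, shares and ratios per kb), 1 library lay so far from the other 3 that its gap, over the range of the group, exceeded Dixon's 95% critical value, where chance alone gives 2.8. Several of the 6 share the same CCND2 values.

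CCND2 was at 5.54 CPM in ELAPOR1 replicate 4, against 3.44 to 3.53 in the other ELAPOR1 libraries. Its share of the D cyclin sum there was 0.456%, against 0.272 to 0.289%, and the ratio of CCND1 to CCND2 per kb was 187 (186.5), against 296 to 310. CDKN1B was at 86.9 CPM in the same library, against 78.1 to 79.0. In control replicate 3 CCND2 was at 10.7 CPM, against 9.81 to 9.91. The D cyclin sum was 196 CPM per kb in ELAPOR1 replicate 3 (196.0), against 187.5 to 188. No cause of these gaps was tested.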

How the results depend on the processing

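CCND2 and CDKN1A were called in the same direction under all 21 alternatives, while CDK4 and CCNE1 were called under none. CCND1, CCND3, CDK6, CDKN1B and RB1 lost their call only in the test against a 1.5-fold change, at log2 fold changes of 0.25, 0.19, 0.13, -0.38 and 0.16; that test called 215 genes in all, 2 of the 10 (CDKN1A and CCND2), and 0 in each of the 6 other lists (glmTreat; at an unadjusted p under 0.05 it gave 2 other G1 control genes, 2 p53 targets and 0 in the other 4; DESeq2 called 6 to 16 genes of a list and limma-voom 7 to 16). Tests were edgeR with Benjamini-Hochberg adjustment unless named.

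CDKN2A lost its call with a 1.5-fold test (-0.12), at an adjusted p-value under 0.01 (-0.12), with total count scaling (-0.097) and after GC and length trends were removed (-0.012; the cause was not tested). With 1 library left out it ranged from -0.17 to -0.096, and adjusted p from 1.4e-04 to 0.092. Leaving out 1 library gave 5557 to 6316 called genes and 7 or 8 of the 10, against 6193 and 8. Summing CCND2 with AC008012.1 gave -0.71.

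Without division by length, CCND1 made up 90.5% of the D cyclins in control and 91.8% in ELAPOR1 libraries, CCND2 1.56 and 0.528%, CCND3 7.94 and 7.72%, and CDK4 was 1.58 and 1.40 times CDK6. With exon-union length, CCND1 made up 92.2 and 93.1%, CCND2 1.08% in control, and CCND3 6.73 and 6.52%. On both of these scales the CCND1 share did not overlap between groups.

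With the replicate number as a block, 5926 genes and 8 of the 10 were called, and CCND1 was at 0.25; the block changed no call among the 10. Same-numbered libraries had correlations of deviations from -0.11 to 0.036, so the numbers are not taken as pairs. Depth limits CCNE1 and CCND2, with under 180 counts per library.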
